A study of Mus musculus with 6 samples.

Results

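The Frizzled receptors are the cell-surface receptors of the Wnt proteins, and all 10 mouse genes of the family, Fzd1 to Fzd10, were followed in fetal lungs of mice labelled as lacking the zinc finger transcription factor GATA6. The members are the 26 probe sets of the Affymetrix Mouse430_2 array whose annotation names exactly 1 gene, that gene being a Frizzled, out of 45037 probe sets that are not controls; they stand for 10 of the 18193 genes named in this way. Embryonic lungs were isolated at E18.5, late in gestation, and total RNA from them was put on 6 arrays, 3 titled GATA6 KO (KO 1, KO 2 and KO 3) and 3 titled wild-type (WT 1, WT 2 and WT 3). The labels do not name the allele, the strain, a Cre driver or the cells in which Gata6 was deleted, and do not say whether each array holds 1 embryo, so that p-values measure the spread between these arrays, which may be technical.

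A Frizzled binds Wnt through a cysteine-rich domain outside the cell and passes the signal across the membrane to a Dishevelled protein. With the co-receptors Lrp5 or Lrp6 this stabilises beta-catenin, which switches on target genes in the nucleus. With Ror, Ryk and the Vangl, Celsr and Prickle proteins it orients cells in the plane of a tissue. In the lung, Wnt2 from the mesenchyme and Wnt7b from the epithelium act through these receptors on the growth and branching of the airways. By sequence the family falls into Fzd1, Fzd2 and Fzd7, then Fzd5 and Fzd8, then Fzd4, Fzd9 and Fzd10, and last Fzd3 and Fzd6.

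Every level below is log2 of the deposited linear intensity plus a pseudocount of 16, so that a signal of 0 would read 4. Every difference is the arrays labelled KO minus those labelled WT, and it understates the change of a dim probe set. A probe set is called dim where both group means lie at or below 5.30, the median of all probe sets, and 16 of the 26 Frizzled probe sets lay above it. Levels of different probe sets are not compared, because each has its own brightness. Precision is limited by having 3 arrays a group.

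The level of Gata6 was not reduced under the KO label. On its brightest probe set it read 11.58, 11.39 and 11.19 in the arrays labelled KO, against 11.12, 10.26 and 10.42 in those labelled WT, a difference of 0.79 (SE 0.25, limma adjusted p = 0.963). Every array labelled KO lay above every array labelled WT on that probe set (unadjusted p = 0.0194 in limma), as on 5.72% of all probe sets. The other probe sets of Gata6 differed by 0.83 (SE 0.31) and 0.36 (SE 0.45). The former did not overlap either, though narrowly, with 9.625 in KO 3 against 9.620 in WT 1 (unadjusted p = 0.0406 in limma). The latter overlapped. Whether these probes fall inside the deletion is not given in the sources used here, so that Gata6 checks no label, and each direction below is one between labels. Markers of lung epithelium were measured on all 6 arrays, but not all at like levels. Sftpb, a surfactant protein gene, read 12.09 to 12.70 in the arrays labelled KO and 12.09 to 12.77 in those labelled WT. Sftpc, another surfactant protein gene, read 12.71, 15.74 and 15.37 in the arrays labelled KO, against 15.60, 15.80 and 15.66 in those labelled WT. Cldn18, a tight junction gene of the alveolar epithelium, read 9.18, 11.91 and 9.81 in the arrays labelled KO, against 13.31, 13.22 and 13.48 in those labelled WT, without overlap. Its difference of -3.04 (SE 0.69, limma adjusted p = 0.963) was larger in size than that of any Frizzled probe set. Nkx2-1, the lung epithelial transcription factor, read only 5.15 to 6.12 in the arrays labelled KO and 5.37 to 6.73 in those labelled WT. Of the 10 epithelium markers 4 had a higher mean in the arrays labelled KO. Scgb3a2 was 1 of them and read higher there without overlap, by 0.24 (SE 0.11, limma adjusted p = 0.963). The arrays labelled KO 2, KO 3 and WT 1 stood apart from the rest in the balance of their signal. Their median over bright probe sets without a gene name, minus that over bright named ones, was -1.19, -0.66 and -0.87 log2, against -1.97, -1.98 and -1.88 in KO 1, WT 2 and WT 3. The scanner read the 3 arrays labelled WT first and the 3 labelled KO last, and scan order and group therefore cannot be told apart.

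Fzd2 was the Frizzled gene whose arrays differed most between the labels, and all 3 of its probe sets read lower in the arrays labelled KO. Fzd2 serves both arms of Wnt signalling and is known from mouse studies to shape the branching airway epithelium. The probe set 1418533_s_at, whose suffix marks probes shared by several transcripts, read 8.13, 8.25 and 7.90 in the arrays labelled KO, against 9.43, 9.29 and 9.22 in those labelled WT. In linear intensity these were 264.0, 288.8 and 223.4 in the arrays labelled KO and 672.6, 608.6 and 578.6 in those labelled WT. The groups did not overlap, and the lowest array labelled WT stood well above the highest labelled KO. The means were 8.10 ± 0.18 in the arrays labelled KO and 9.31 ± 0.11 in those labelled WT (SD, n = 3 each), a difference of -1.22 (SE 0.14), or 0.431 of the level labelled WT. This probe set had the rank 8 of 45037 by unadjusted p in limma (0.000128), and it did not pass after Benjamini-Hochberg adjustment over all of them (adjusted p = 0.666).

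The second Fzd2 probe set gave a difference of like size. It, 1418532_at, read 7.50, 8.09 and 7.71 in the arrays labelled KO, against 9.29, 9.04 and 8.49 in those labelled WT, again without overlap. The difference was -1.18 (SE 0.26, limma adjusted p = 0.963), or 0.443 of the level labelled WT. The brightest Fzd2 probe set, 1418534_at, read 8.65, 8.73 and 8.18 in the arrays labelled KO, against 8.71, 9.24 and 9.54 in those labelled WT. Here WT 1 lay just below KO 2, so the groups overlapped, and the difference was -0.64 (SE 0.26, limma adjusted p = 0.963). The 3 probe sets disagreed on which array labelled WT was the highest: it was WT 1 on the first and second and WT 3 on the brightest.

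The Fzd2 difference was of another size within a single fluidics station on 2 of its probe sets. WT 1 and WT 2 were washed on station 1, and WT 3 and all 3 arrays labelled KO on station 2. Within station 2, which leaves WT 3 as the 1 array labelled WT, the difference of 1418533_s_at was -1.12, that of 1418532_at was -0.72 and that of 1418534_at was -1.02. With the balance of unnamed and named signal as a covariate the same probe sets differed by -1.21, -1.27 and -0.50. Over 18 alternatives the difference of 1418533_s_at lay between -1.29 and -1.09 (adjusted p from 0.197 to 1), and that of 1418532_at from -1.40 to -0.72 (adjusted p from 0.465 to 1). That of 1418534_at ran from -1.02 to -0.46 over 19 alternatives (adjusted p from 0.517 to 1).

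**Figure D1:**
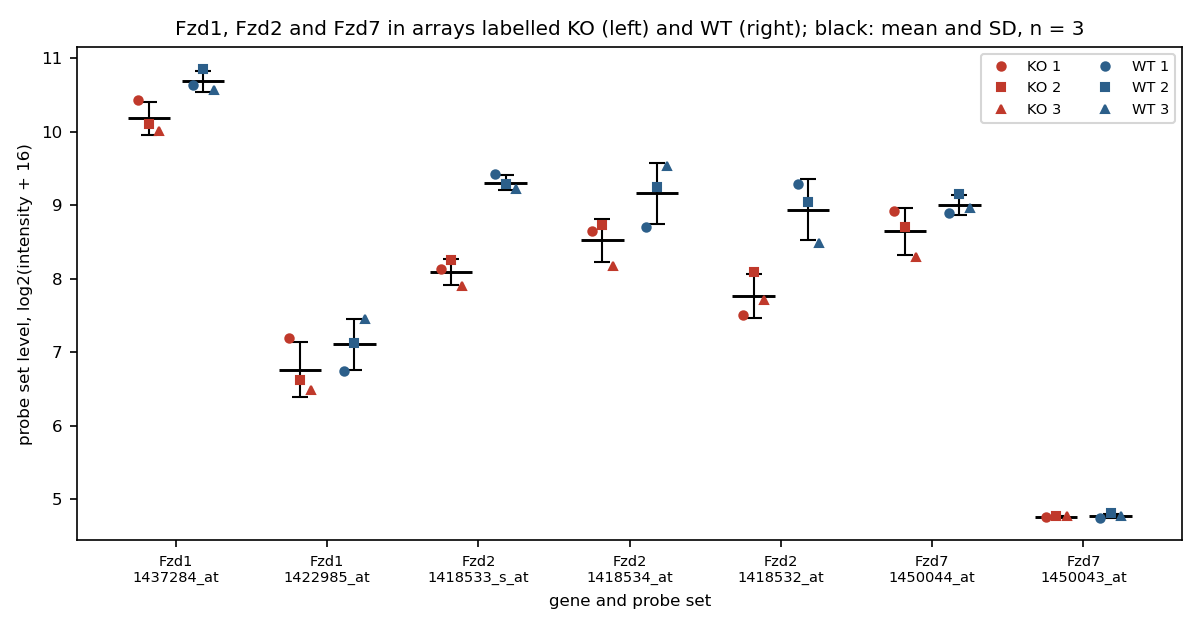
Level of each probe set of Fzd1, Fzd2 and Fzd7, as log2 of intensity plus 16, with 1 point per array, the arrays labelled KO left of those labelled WT, and the mean and SD of 3 arrays in black. The groups do not overlap on 1437284_at of Fzd1 and on 1418533_s_at and 1418532_at of Fzd2, with KO below WT on all of them.

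Fzd1 and Fzd7, the closest relatives of Fzd2, also read lower, by smaller amounts. The brighter Fzd1 probe set, 1437284_at, read 10.43, 10.11 and 10.01 in the arrays labelled KO, against 10.64, 10.85 and 10.57 in those labelled WT. The highest array labelled KO lay below the lowest labelled WT, by less than the range within either group. The difference was -0.50 (SE 0.15, limma adjusted p = 0.963), in a range of -0.63 to -0.39 over 19 alternatives (adjusted p from 0.517 to 1). The other Fzd1 probe set, 1422985_at, overlapped between the labels, with a difference of -0.34 (SE 0.30), or -0.69 within fluidics station 2. For Fzd7, a receptor known from stem cells of the intestine, 1450044_at read 8.93, 8.71 and 8.30 in the arrays labelled KO, against 8.89, 9.15 and 8.97 in those labelled WT. Its difference was -0.36 (SE 0.19, limma adjusted p = 0.963) and rested in part on 1 array, being -0.19 without KO 3. The second Fzd7 probe set was dim and read 4.75 to 4.80 on all arrays.

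All 7 probe sets of Fzd1, Fzd2 and Fzd7 thus had a lower mean in the arrays labelled KO. Of the 22912 probe sets that were not dim, 51.3% had a lower one, and of all 45037 probe sets 63% had a higher one. Over the 6 of these 7 probe sets that were not dim the median was -0.57. It was -0.007 over all probe sets that were not dim, and the dim one of Fzd7 differed by -0.01. Probe sets of 1 gene read the same RNA, so the 7 stand for 3 genes and not for 7 separate measurements. Lower means were not confined to this subfamily. Among probe sets that were not dim, 3 of 3 were lower in the group of Fzd4, Fzd9 and Fzd10 (median -0.07). In that of Fzd5 and Fzd8 it was 2 of 3 (median -0.05), and in that of Fzd3 and Fzd6 2 of 4 (median 0.08).

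RefSeq promoters, which span 250 bases before to 50 after a gene's start, were at hand for 6 of the 10 Frizzled genes (Fzd1, Fzd4, Fzd5, Fzd7, Fzd9 and Fzd10), in the build GRCm38.p6. Those of Fzd1 and Fzd7 are shown because these genes and Fzd2 form the subfamily in which all 7 probe sets had a lower mean. The capitals mark the GATA factor motif, searched as AGATAA or AGATAG or TGATAA or TGATAG, and the TCF/LEF motif CTTTGA, both on either strand.
Fzd1, chr5:4758167-4758466, minus strand: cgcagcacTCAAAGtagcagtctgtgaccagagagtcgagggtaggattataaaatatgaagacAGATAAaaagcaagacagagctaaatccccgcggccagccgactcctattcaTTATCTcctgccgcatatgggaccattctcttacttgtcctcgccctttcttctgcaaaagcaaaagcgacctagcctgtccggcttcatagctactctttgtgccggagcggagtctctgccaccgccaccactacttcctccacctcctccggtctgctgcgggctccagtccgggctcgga
Fzd7, chr1:59481897-59482196, plus strand: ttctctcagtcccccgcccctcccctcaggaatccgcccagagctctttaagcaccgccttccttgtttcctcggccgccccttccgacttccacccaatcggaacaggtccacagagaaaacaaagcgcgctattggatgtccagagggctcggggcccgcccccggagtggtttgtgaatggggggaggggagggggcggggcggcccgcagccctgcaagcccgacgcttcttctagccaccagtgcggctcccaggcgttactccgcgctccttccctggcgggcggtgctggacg
The Fzd1 promoter held AGATAA at 186 bases before the start on its own strand, and again at 134 bases before it on the opposite strand, where it is written TTATCT. It also held CTTTGA on the opposite strand, written TCAAAG. None of the other 5 promoters held any of these motifs. Of 27025 mouse promoters of the same length, 30.2% held at least 1 of the 4 GATA motifs and 16.2% held CTTTGA, and 53.6% of their bases on average were G or C, against 54.0% for Fzd1 and 66.7% for Fzd7. A match describes the letters only and is no measure of binding.

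Fzd5 and Fzd8, receptors of early patterning and of the intestinal crypt (Fzd5) and of the kidney and brain (Fzd8), showed no difference that stood out from the spread. Fzd5, on 1455604_at, read 9.56, 8.83 and 8.52 in the arrays labelled KO, against 9.04, 8.79 and 9.07 in those labelled WT. KO 1 was the highest and KO 3 the lowest of all 6 arrays, and the difference was 0.005 (SE 0.28, unadjusted 95% interval -0.69 to 0.70). The brighter Fzd8 probe set, 1423348_at, read 8.62, 8.07 and 7.73 in the arrays labelled KO, against 8.15, 8.33 and 8.10 in those labelled WT. It too had KO 1 highest and KO 3 lowest, with a difference of -0.05 (SE 0.25). On the dimmer Fzd8 probe set, 1445815_at, the difference was -0.14 (SE 0.45). The signs of Fzd5 and of both Fzd8 probe sets turned under some alternatives.

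Fzd4, the receptor of Norrin as well as of Wnt and a gene of blood vessel growth, differed by -0.12 (SE 0.25), -0.03 (SE 0.37) and -0.07 (SE 0.38) on its 3 probe sets. Its brightest probe set, 1434756_at, read 9.26, 8.50 and 8.91 in the arrays labelled KO, against 8.65, 9.20 and 9.18 in those labelled WT. The high arrays were KO 1, WT 2 and WT 3, and the low ones KO 2, KO 3 and WT 1, the same 3 that stood apart in the balance of unnamed and named signal. With that balance as a covariate the 3 differences of Fzd4 were 0.003, 0.21 and 0.14, and within fluidics station 2 they were -0.30, -0.32 and -0.42. The part of this balance in the Fzd4 levels was not tested further. Of the blood vessel markers, all 8 endothelial genes had a lower mean in the arrays labelled KO, as had 7569 of all 18193 genes. None of the 8 was dim, and 51.3% of all probe sets that were not dim had a lower mean. The median difference of the 8 was -0.69. Their summed intensity was 6762 to 8001 in the arrays labelled KO and 7613 to 12180 in those labelled WT. The part of vessel cells in the Fzd4 levels was not tested.

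Fzd9, known from bone formation, and Fzd10, known to bind Wnt7b, read near the floor on all arrays. Fzd9 averaged 4.41 in the arrays labelled KO and 4.41 in those labelled WT, and the brighter Fzd10 probe set between 4.52 and 4.55 in the arrays labelled KO and 4.51 and 4.53 in those labelled WT. These levels show no signal that could be told from background, which is not proof that the genes were silent.

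Fzd6 and Fzd3, which act in the planar orientation of hair follicles and in axon guidance, also overlapped between the labels. The brightest Fzd6 probe set, 1417301_at, read 9.90, 9.13 and 8.69 in the arrays labelled KO, against 8.62, 9.56 and 9.68 in those labelled WT. Again KO 1, WT 2 and WT 3 were the high arrays, and the difference was -0.04 (SE 0.41), or 0.24 with the balance of unnamed signal as a covariate and -0.44 within fluidics station 2. The second Fzd6 probe set, 1448662_at, had the same high and low arrays and differed by -0.37 (SE 0.59), or by -0.94 within that station. Fzd3, on 1434788_at, read 8.12, 7.67 and 7.68 in the arrays labelled KO, against 6.98, 7.61 and 8.05 in those labelled WT. WT 1 was the lowest array here, and the difference of 0.27 (SE 0.31) became -0.23 within fluidics station 2 and -0.01 without WT 1. On 1450135_at Fzd3 differed by 0.20 (SE 0.24), or by 0.008 within station 2.

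**Figure D2:**
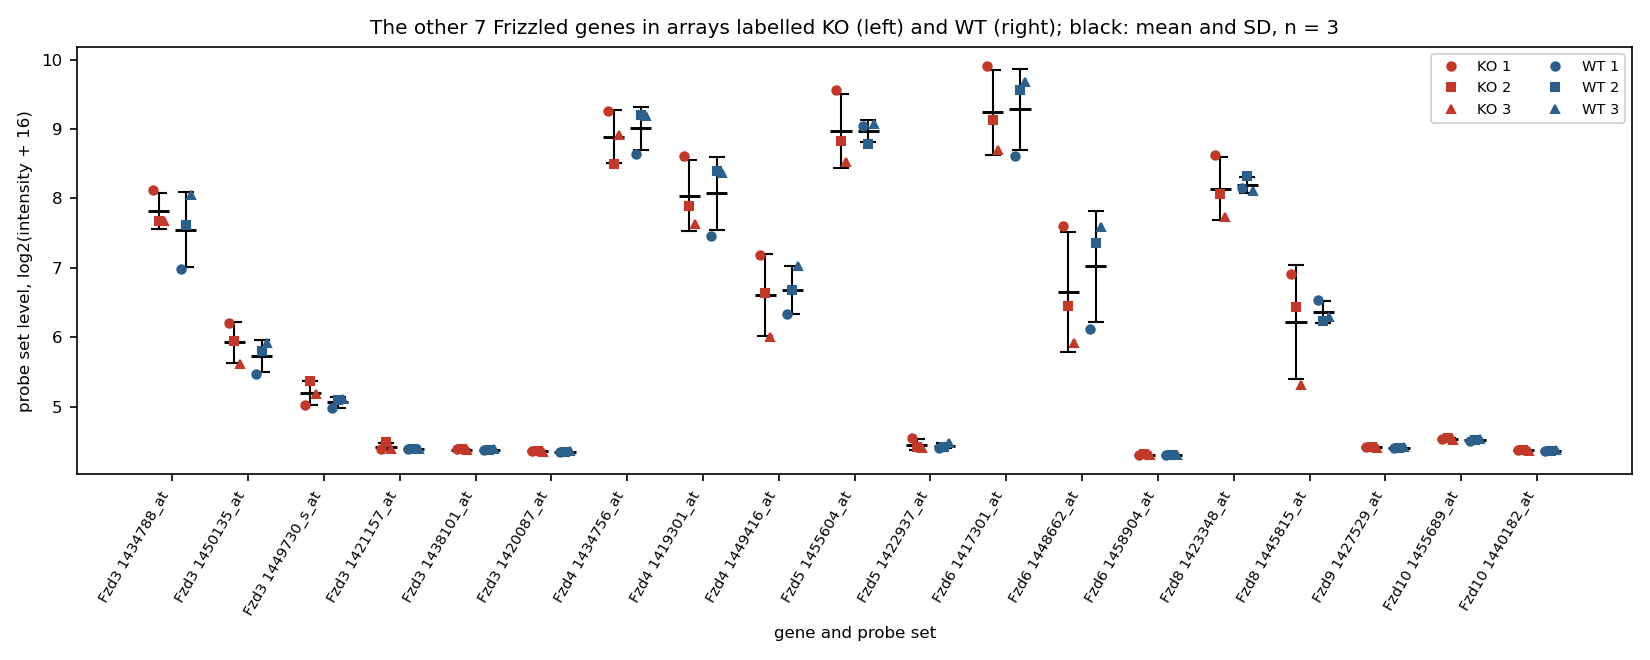
Level of each probe set of Fzd3, Fzd4, Fzd5, Fzd6, Fzd8, Fzd9 and Fzd10, as log2 of intensity plus 16, with 1 point per array, KO left of WT, and the mean and SD of 3 arrays in black. The groups overlap on every probe set shown, and the dim ones sit close to the floor.

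Of the 26 Frizzled probe sets, 0 passed an adjusted p of 0.05 in limma, as did 0 (0%) of all 45037. At an unadjusted p under 0.05 there were 3 of 26, 1 of Fzd1 and 2 of Fzd2, all lower in the arrays labelled KO, or 11.5%, against 3.1% of all probe sets in either direction, 1.74% as lower and 1.35% as higher. On the same 3 probe sets the highest array labelled KO lay below the lowest labelled WT, as on 2.76% of all probe sets, and on 0 of the 26 was the order the opposite, as on 5.72% of all. Counted by the brightest probe set of each gene, 1 of 10 genes (Fzd1) was under that p, against 4.3% of 18193 genes. The median over the 10 genes was -0.05 and that over all genes 0.003. The 10 dim Frizzled probe sets read 4.30 to 5.37 on every array and differed by -0.01 to 0.13, and none of them had a p under 0.05 (the lowest was 0.197).

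**Figure D3:**
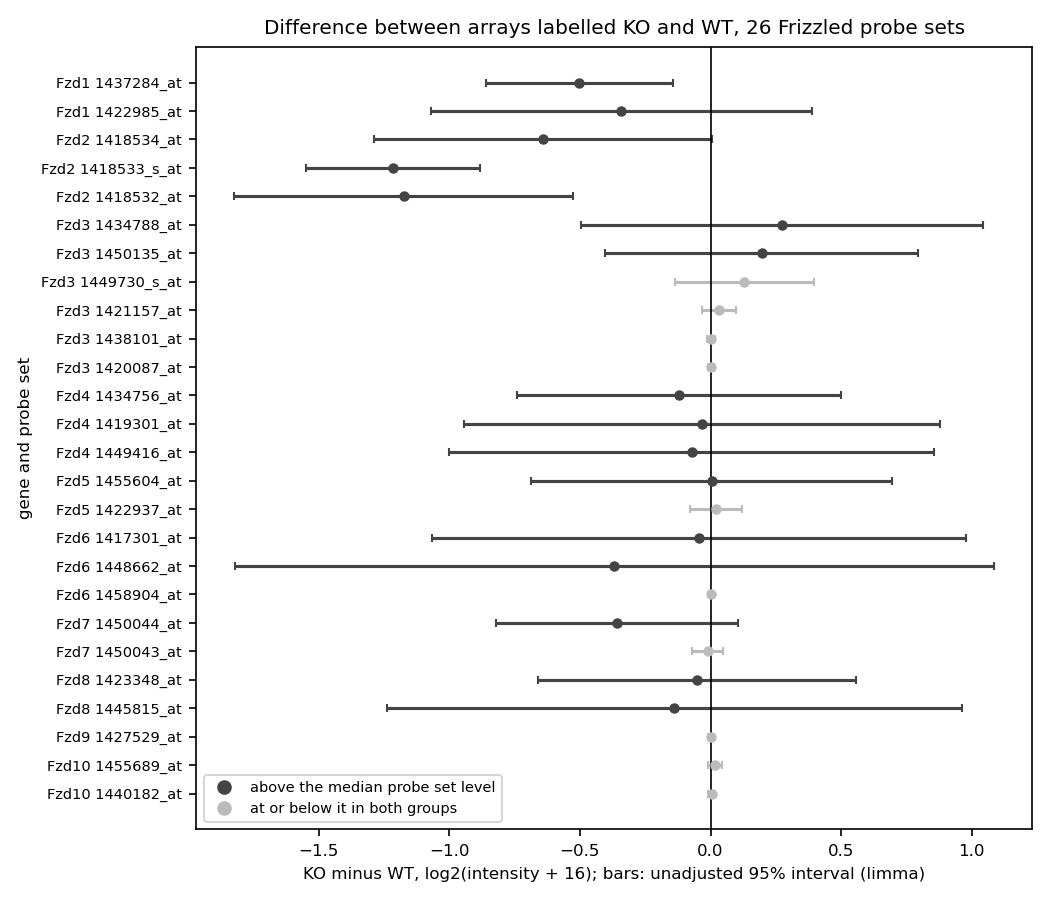
Difference (KO minus WT, log2 scale) between the labels for the 26 Frizzled probe sets, with unadjusted 95% intervals from limma, dark where a group mean lay above the median probe set level and grey where neither did. The intervals of 1437284_at of Fzd1 and of 1418533_s_at and 1418532_at of Fzd2 lie below 0 and all others cross it.

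**Figure D4:**
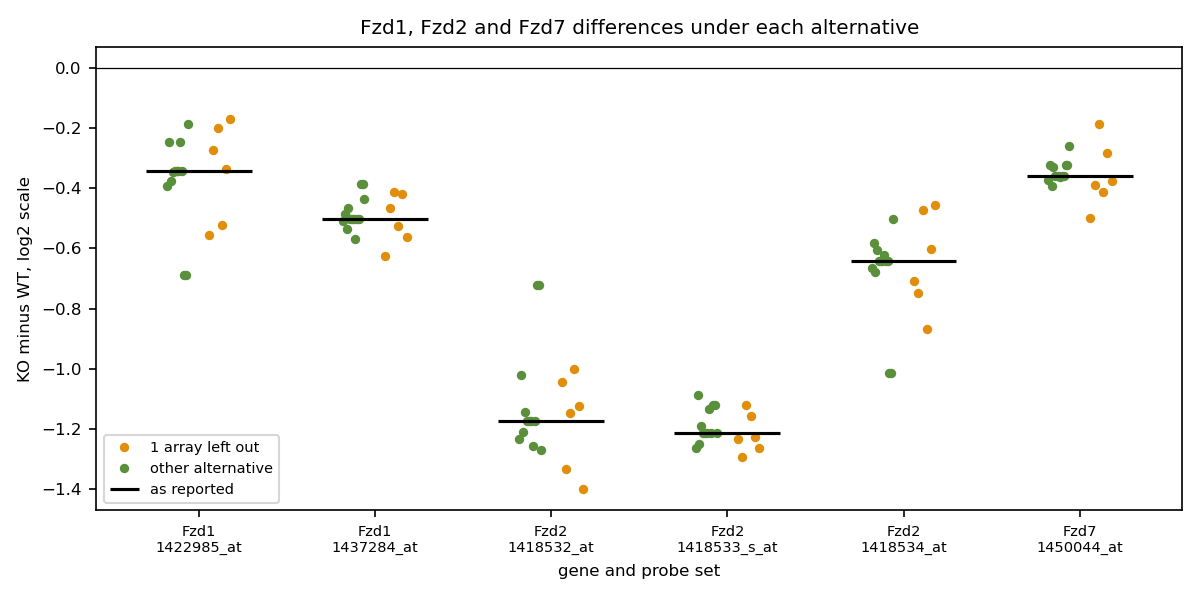
Difference (KO minus WT, log2 scale) of the Fzd1, Fzd2 and Fzd7 probe sets that were not dim, as reported (black line), with 1 array left out (orange) and under the other alternatives (green). All points lie below 0.

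Among the other genes of the Wnt pathway, higher and lower means were about equally frequent only when dim genes were counted too. Of 83 listed, 81 were measured, each by its brightest probe set: 41 had a higher and 40 a lower mean in the arrays labelled KO, with a median of 0. Most of the dim genes had a slightly higher mean, near the floor. Most of those not dim had a lower one, as had 51.3% of all probe sets that were not dim. The counts given below for each list take in its dim genes as well. None passed over all probe sets in limma, and 3 (3.7%) had an unadjusted p under 0.05, against 4.3% of all genes. All 3, Prickle1, Prickle2 and Reck, read lower in the arrays labelled KO. For 7 of the 81 every array labelled KO lay below every array labelled WT, and for 2 the order was the opposite. Over all 18193 genes these counts were 694 and 1071. The 7 were Prickle1, Prickle2, Reck, Ryk, Wnt3a, Wnt9a and Dkk3. Of the 27 pathway genes named below, 9 had a difference smaller by over 1.5 times, or of the other sign, within fluidics station 2, and 4 had one larger by over 1.5 times.

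Among the ligands 0 of 19 Wnt genes passed, 8 with a lower and 11 with a higher mean. Only 9 of the 19 were not dim, and these held all 8 of the lower ones. The 1 of these 9 with a higher mean differed by just 0.01. The dim ligands, all with a higher mean, differed by at most 0.042. Wnt2, the main mesenchymal Wnt of the lung, read 10.34, 10.65 and 9.99 in the arrays labelled KO, against 10.49, 10.72 and 10.70 in those labelled WT, and differed by -0.31 (SE 0.18). Wnt3a and Wnt9a, both little above the median probe set, differed by -0.44 (SE 0.20) and -0.41 (SE 0.20), each without overlap between the labels. For Wnt3a the gap was narrow, with 5.375 in KO 3 against 5.402 in WT 3. Wnt4 differed by -0.62 (SE 0.56), and by 0.002 without WT 1, in which alone it was high. Within station 2 Wnt4 differed by -0.01 and Wnt3a by -0.22.

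Of the 10 co-receptors and alternative receptors 6 read lower, with a median of -0.28, and 0 passed. Reck, which with Adgra2 and Fzd4 forms the receptor complex for Wnt7 proteins on brain vessels, read 10.35, 10.51 and 10.37 in the arrays labelled KO, against 10.76, 10.87 and 10.67 in those labelled WT (difference -0.36, SE 0.09). Adgra2 itself differed by -0.43 (SE 0.22), the Wnt5a-binding kinase-like receptor Ryk by -0.31 (SE 0.13) and the beta-catenin co-receptor Lrp6 by -0.37 (SE 0.19). Ryk, like Reck, did not overlap between the labels, and within station 2 it differed by -0.15.

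Of the genes that set how long a Frizzled stays on the membrane, 0 of 9 passed. Znrf3, a ubiquitin ligase that removes Frizzleds, differed by -0.62 (SE 0.35), its relative Rnf43 by 0.32 (SE 0.51) and Rspo2, a secreted protein that shields Frizzleds from them, by 1.22 (SE 0.65). Rspo2 ranged widely within each label, from 6.75 to 8.17 in the arrays labelled KO and from 5.21 to 7.26 in those labelled WT. Its difference was 0.04 within station 2, and 0.79 to 1.81 with 1 array left out. Lgr4, an R-spondin receptor, differed by 0.05 (SE 0.19).

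The secreted antagonists and Kremen genes had 7 lower and 5 higher of 12, with 0 past the threshold. Dkk3 differed by -0.29 (SE 0.15), Sfrp2, which binds Wnt outside the cell, by 0.57 (SE 0.35), Kremen1 by -0.19 (SE 0.24) and Sfrp1 by -0.14 (SE 0.39). Of the 16 measured transducers inside the cell 9 read higher and 7 lower, with a median of 0.003, and 0 passed. Dvl1, a Dishevelled that Frizzleds recruit, differed by 0.47 (SE 0.29), Csnk1e by -0.18 (SE 0.14), Axin1 by -0.25 (SE 0.29) and Apc by -0.21 (SE 0.17).

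Of the 8 planar polarity partners 6 read lower, with a median of -0.14, and 0 passed. Prickle1, a cytoplasmic protein that is known from Drosophila to gather at the cell face opposite to Frizzled, read 9.27, 9.47 and 9.27 in the arrays labelled KO, against 9.91, 10.10 and 9.88 in those labelled WT. The groups did not overlap, and the difference of -0.63 (SE 0.11, limma adjusted p = 0.963) ran from -0.73 to -0.55 over 19 alternatives (adjusted p from 0.424 to 1). Its relative Prickle2 read 8.24, 8.16 and 7.82 in the arrays labelled KO, against 8.44, 8.98 and 8.55 in those labelled WT, a difference of -0.59 (SE 0.20). Scrib differed by -0.22 (SE 0.20) and Celsr2 by -0.12 (SE 0.36).

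Genes that beta-catenin switches on had 7 lower and 5 higher of 12, and 0 passed. Axin2, the most general of these targets, read 7.52, 7.20 and 7.40 in the arrays labelled KO, against 8.13, 8.05 and 7.46 in those labelled WT. KO 1 lay just above WT 3, and the difference was -0.51 (SE 0.23), or -0.09 within fluidics station 2. Sp5 and Bmp4 differed by 0.51 (SE 0.38) and 0.32 (SE 0.32), and Bmp4 by 0.72 within that station.

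**Figure D5:**
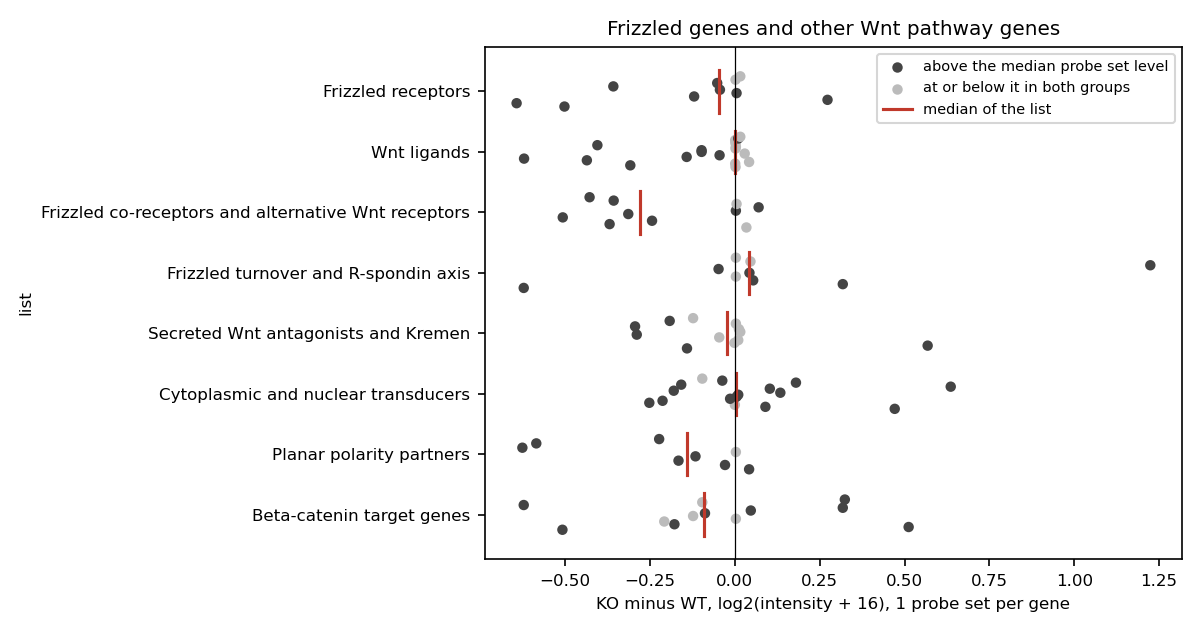
Difference (KO minus WT, log2 scale) of each gene of the Frizzled list and of 7 other Wnt pathway lists, 1 point per gene by its brightest probe set, with the median of each list in red. The list medians lie between -0.28 and 0.04.

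In whole lung, fewer cells of a type and less RNA per cell cannot be told apart. Beside the lower Fzd2 levels, all 7 smooth muscle markers had a lower mean in the arrays labelled KO (median -0.29), with summed intensities of 6556 to 9318 in those arrays and 7612 to 11340 in the arrays labelled WT. Of the 10 mesenchyme markers 7 were lower (median -0.03, sums of 96560 to 124700 in KO and 104300 to 116600 in WT), and of the 10 lung epithelium markers 6 (median -0.04, sums of 65240 to 117800 in KO and 107400 to 119300 in WT). The sums are carried by the brightest markers, and single markers of these lists differed more. Among the mesenchyme markers Dcn and Lum, both genes of matrix proteoglycans, read higher in the arrays labelled KO without overlap, by 1.10 (SE 0.20) and 1.47 (SE 0.31), and Tbx4 read lower without overlap, by -0.33 (SE 0.13). These 3 had an unadjusted p under 0.05, or 30% of that list, against 4.3% of all genes, and none passed (limma adjusted p = 0.963 each). The share at that level was 25% in the endothelium list, 14.3% in the smooth muscle list and 10% in the epithelium list. Myocd, a regulator of smooth muscle genes, differed by -0.68 (SE 0.23), again without overlap, and Cldn18 of the epithelium list by -3.04, as given above. None of the markers of the smooth muscle, mesenchyme, epithelium and endothelium lists was dim. The part of cell makeup in the Frizzled differences was not tested.

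The genes whose levels over the 6 arrays were most like those of the brightest Fzd2 probe set, among 11360 genes above the median probe set in at least 1 group, were Ccn4, Cdipt, Masp1, Apcdd1 and Pxdn. Likeness was the mean absolute difference between levels centred on each gene's own mean, and was 0.04 log2 for Ccn4, 0.06 for Cdipt and 0.08 for each of the others. Ccn4 read 6.64, 6.70 and 6.20 in the arrays labelled KO, against 6.70, 7.17 and 7.42 in those labelled WT, and Apcdd1 read 9.72, 9.97 and 9.25 in the arrays labelled KO, against 9.91, 10.58 and 10.71 in those labelled WT. On that Fzd2 probe set, 1418534_at, WT 1 was the lowest array labelled WT (8.71). On 1418533_s_at and 1418532_at it was the highest (9.43 and 9.29), and likeness to those probe sets was not taken. The likeness is a description over 6 arrays, with no test.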

How the data were processed

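Total RNA of E18.5 mouse lungs was measured on 6 Affymetrix arrays. The authors deposited linear probe set intensity values (lowest 2.04, highest 69370 over arrays). Per the submitters' processing notes the tools were GCRMA and MAS5, and which of them made these values is not given in the sources used here. The arrays' quantiles lie close together (medians 20.5 to 23.9), so no further scaling was applied.

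Intensities were taken as log2(value + 16). Of 45101 probe sets 64 controls were left out, and 34945 named 1 gene, 34741 through a current gene ID (GRCm38.p6 table, names only). The contrast of labels was tested over all 45037 probe sets with limma 3.58.1 in R 4.3.3 (lmFit, eBayes with intensity trend), two-sided, Benjamini-Hochberg adjusted, threshold 0.05. All p-values and SEs come from that fit. Scripts were tested on simulated data. Lists are described by 1 probe set per gene, the brightest.

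The members, lists and alternatives were chosen with earlier results of these data known. The rule named all Frizzleds and Gata6. From each pathway list it named the members past the threshold and the 4 bright ones with the smallest p. Of marker lists it named the first 2 measured, and it named the 5 genes most like Fzd2. Sftpb, Sftpc, Cldn18, Scgb3a2, Dcn, Lum, Tbx4, Myocd and Stmn2 were added after their values were seen.

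Same-numbered arrays were not taken as pairs: their residuals correlated at -0.613, 0.0971 and -0.311. There were 19 alternatives: pseudocounts of 1 and 64, quantile normalisation, median centring, leaving out dim probe sets, no trend, robust eBayes, array weights, 1 probe set per gene, replicate block, fluidics station as a block or alone, a covariate for unnamed signal, and each array left out. Array weights gave WT 2 a weight of 14.3 and every other array 1.09 or less. The lowest adjusted p given above for Fzd1, Fzd2 and Prickle1 came from that setting, which rests largely on WT 2 for its WT level.

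Of the first 2 genes of the epithelium, mesenchyme, smooth muscle and endothelium lists, Nkx2-1 and Epcam differed by -0.36 and 0.41, Col1a1 and Col1a2 by -0.17 and 0.01, Acta2 and Myh11 by -0.23 and -0.61, Pecam1 and Cdh5 by -0.81 and -0.91. Median differences were -0.22 for mesothelium, -0.07 for immune cells, -0.28 for red blood cells, 0.18 for cardiac muscle and -0.003 for neurons. The neuron median says little, because 3 of the 4 measured markers were dim. Stmn2, the only neuron marker that was not, differed by -0.907 (SE 0.375). Only 3 red blood cell markers were measured, 1 of them dim.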

Additional observations from a re-analysis of the deposited data

How the results depend on the processing

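Differences were followed for the Frizzled probe sets that were not dim, Gata6 and the named pathway genes, 46 in all. Of these, 31 kept their direction under every alternative run on them. All probe sets of Fzd1 and Fzd2 and 1450044_at of Fzd7 were among the 31. The setting of 1 probe set per gene leaves out the dimmer ones of a gene. So 1422985_at of Fzd1 and 1418533_s_at and 1418532_at of Fzd2 were run under 18 of the 19 alternatives. No Frizzled probe set passed an adjusted p of 0.05 under any alternative. Over all probe sets the count was 0 as reported (1394 at an unadjusted p under 0.05), 1 with median centring (Dnase1l2), 1 with 1 probe set per gene (5830444B04Rik) and 37 with fluidics station as a block, where the arm labelled WT rests on WT 3. The replicate block changed no call: 1418533_s_at of Fzd2 differed by -1.215 with the block as without it (adjusted p = 1).

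The other 15 turned under at least 1 alternative, and the cause was not tested. Within station 2, and identically with station as a block, the values were -0.231 for Fzd3, -0.1 for Fzd5, 0.041 for 1423348_at of Fzd8, -0.081 for Rnf43, -0.027 for Lgr4 and 0.09 for Sfrp1. With the covariate for unnamed signal they were 0.003, 0.213 and 0.137 for Fzd4, 0.237 and 0.021 for Fzd6, 0.068 and 0.014 for Fzd8 and 0.051 for Celsr2. Array weights gave 0.134 for 1449416_at of Fzd4, 0.291 for 1445815_at of Fzd8 and 0.008 for Sfrp1, and median centring -0.029 for Fzd5. Leaving out 1 array at a time gave ranges that crossed 0: -0.01 to 0.524 for Fzd3, -0.304 to 0.075, -0.339 to 0.175 and -0.362 to 0.23 for Fzd4, -0.289 to 0.23 for Fzd5, -0.379 to 0.229 and -0.842 to 0.001 for Fzd6, -0.293 to 0.152 and -0.485 to 0.318 for Fzd8, -0.006 to 0.698 for 1443081_at of Gata6, -0.938 to 0.002 for Wnt4, -0.202 to 0.584 for Rnf43, -0.004 to 0.094 for Lgr4, -0.345 to 0.165 for Sfrp1 and -0.393 to 0.091 for Celsr2. For dim probe sets the signal over background limits what can be seen.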
